A study of Homo sapiens with 5 samples.

Results

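Tetraspanins are small membrane proteins that cross the membrane several times and gather integrins, immunoglobulin-type receptors and proteases into patches of the cell surface. They have no enzymatic activity of their own and act through the partners they hold and carry to the membrane. Tetraspanins help precursor B cells to adhere and migrate, and CD9 is a surface antigen used to describe B lineage leukaemia. The 10 tetraspanins described here, CD9, CD37, CD53, CD63, CD81, CD82, CD151, TSPAN14, TSPAN3 and TSPAN33, were taken by name from the 65217 genes of the deposited human gene table and matched by Ensembl identifier. All 10 were found, and all 10 passed the filter on low counts.

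RNA was sequenced from REH, a long-established cell line of human B cell precursor acute lymphoblastic leukaemia with the t(12;21) ETV6-RUNX1 (TEL-AML1) fusion, after transplantation into NSG (NOD.Cg-PrkdcscidIl2rgtm1Wjl/SzJ) mice aged 6 to 10 weeks. These hosts lack lymphocytes but keep their own myeloid, vascular and stromal cells. There were 3 brain libraries, from leukaemia cells of the leptomeninges, and 2 spleen libraries, each of pooled RNA from 5 mice, and the libraries of a site come from separate occasions. Another spleen pool failed quality control, per the labels. The comparison sets leukaemia cells of the meninges against leukaemia cells of an organ outside the nervous system.

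The libraries held between 38387991 and 48764202 estimated counts in the human gene table. Mouse transcripts held 5.70%, 2.58% and 2.64% of the counts of brain replicates 1 to 3, and 6.33% and 8.87% of those of spleen replicates 1 and 2. The mouse share was thus lower in each brain library than in each spleen library. Of 10 B precursor markers 9 were tested, and their summed level was 4740, 5090 and 4710 TPM (a level scaled for transcript length and depth) in brain and 5850 and 6060 TPM in spleen. Of the 9, 1 was higher, 1 was lower and 7 did not pass, with a median log2 fold change of -0.23. With edgeR p under 0.05 before adjustment, 2 were higher and 3 were lower. By DESeq2 3 were lower, and by limma on the authors' log2 values 1 was lower. RAG1, of the V(D)J recombinase, averaged 1610 CPM in brain and 1100 CPM in spleen (log2 fold change 0.55, edgeR adjusted p = 0.0137), and CD79A, of the B cell receptor, 695 CPM in brain and 1060 CPM in spleen (-0.61, adjusted p = 0.0166). VPREB1, of the surrogate light chain, had 0 counts in all 5 libraries. By the quasi-likelihood test of edgeR with Benjamini-Hochberg adjustment at a threshold of 0.05, 9.51% of the 20419 tested genes passed, 6.01% upward and 3.50% downward in brain.

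Among the 10 tetraspanins 2, CD9 and TSPAN14, were higher in brain and 0 were lower, against 9.51% of all tested genes called in either direction, 6.01% higher and 3.50% lower. At an unadjusted p under 0.05, 2 were lower, CD81 and TSPAN33, and 0 were lower by DESeq2 or by limma on the authors' log2 values. The median log2 fold change of the 10 was 0.097, against 0.0066 over all tested genes. The brain libraries all lay above both spleen libraries for 4 of the 10 (background 23.3% of tested genes) and below for 2 (background 19.5%).

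CD9 and TSPAN14 are the members whose level differed, so sequence from the 250 bases before 1 start of each is shown. It is as RefSeq gives it on GRCh38.p14, and ends at the first annotated exon within those 250 bases. The annotated CD9 gene begins upstream of its stretch, at 6199715. Of the 10 genes 6 had a promoter entry whose start lay within 50 bases of an annotated transcript start. Capitals mark the GC box GGGCGG, searched on both strands. The start used is that of CD9-201 for CD9, and lies 20 bases from that of TSPAN14-206 for TSPAN14. TSPAN14-206 held 21.1% to 25.9% of the TSPAN14 TPM in brain and 21.3% and 20.5% in spleen, and the most abundant transcript, TSPAN14-210, whose start was more than 50 bases away, held 42.8% to 44.9% in brain and 48.9% and 45.6% in spleen.
CD9, chr12:6200150-6200326, plus strand: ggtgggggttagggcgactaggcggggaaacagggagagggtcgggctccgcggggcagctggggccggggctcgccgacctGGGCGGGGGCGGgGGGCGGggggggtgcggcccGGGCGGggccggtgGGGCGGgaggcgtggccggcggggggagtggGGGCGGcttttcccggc
TSPAN14, chr10:80454060-80454264, plus strand: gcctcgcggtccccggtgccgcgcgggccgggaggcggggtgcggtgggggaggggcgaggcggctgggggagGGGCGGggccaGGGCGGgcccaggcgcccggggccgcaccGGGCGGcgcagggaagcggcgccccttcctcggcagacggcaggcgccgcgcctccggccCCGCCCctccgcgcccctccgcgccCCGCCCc
The stretch of CD9 held 6 GC boxes and that of TSPAN14 5. A GC box was found in the 250 bases before the start in 5 of the 6 genes, against 42.6% of all 35116 promoter entries. G and C made up 76.8% of the CD9 window, 88% of the TSPAN14 window and 44% to 77.2% of the other windows. The entries were not matched to the 6 genes for this share or for expression. The hypoxia response element core ACGTG was in 0 of the 6 windows, against 18.5% of all entries. The E box CAGGTG was in 2 of the 6, CD63 and TSPAN33, against 17.5% of all entries. These letter matches describe the windows and do not show that a factor binds there.

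CD9, which binds integrins and the immunoglobulin-type proteins IGSF8 and PTGFRN, was the member with the largest change (ENSG00000010278, GRCh38 chromosome 12, 6199715 to 6238271). It had 225, 203 and 217 CPM (counts scaled to library size) in brain replicates 1 to 3, and 106 and 125 CPM in spleen replicates 1 and 2. All 3 brain libraries were above both spleen libraries, and the lowest brain value was clear of the highest spleen value. The means were 215 ± 11.2 CPM in brain (SD, n = 3) and 115 ± 13.0 CPM in spleen (SD, n = 2). The log2 fold change, brain over spleen, was 0.90 (SE 0.111, 1.86-fold, edgeR adjusted p = 0.0022). CD9 remained past the threshold in all 14 alternative analyses, with log2 fold changes from 0.57, on the authors' log2 values, to 1.11, with the mouse share as a covariate, where the adjusted p was highest at 0.0475. Among all genes that rose, 50.2% had a larger log2 fold change than CD9. In bulk RNA, fewer cells with a transcript and less transcript per cell cannot be told apart.

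**Figure D1:**
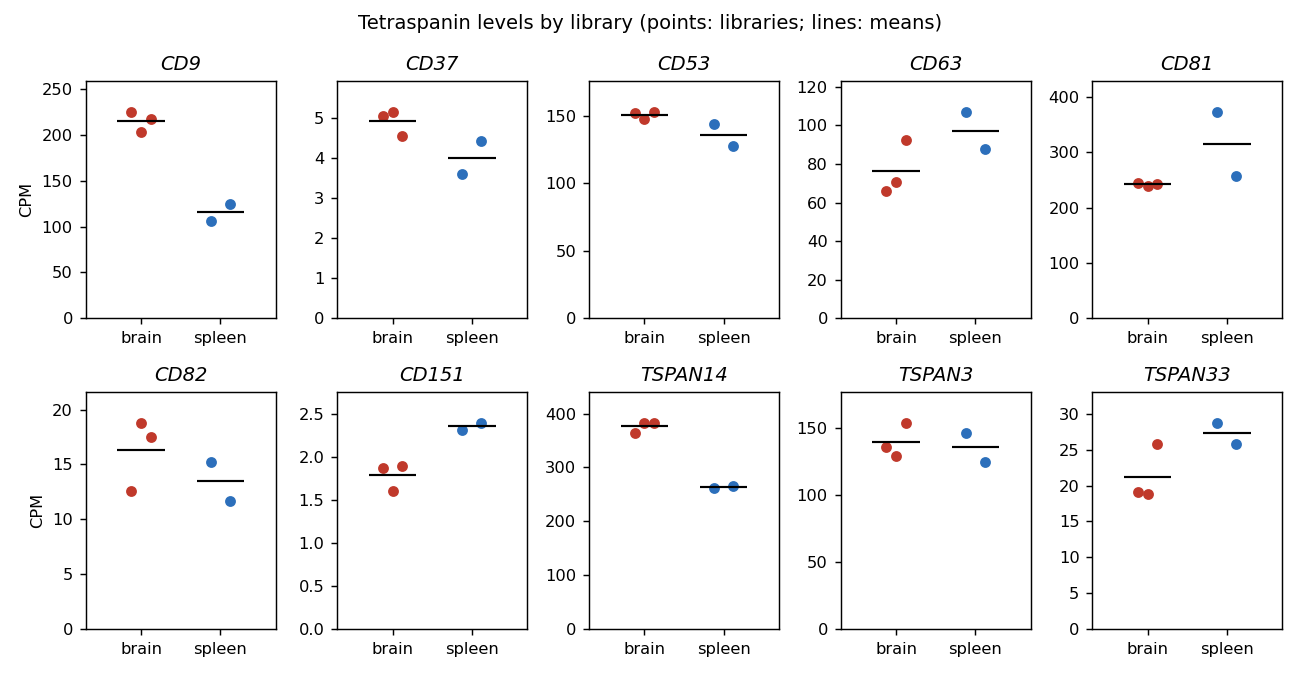
Level of each tetraspanin in CPM (linear axis from 0) in 3 brain and 2 spleen libraries; points are libraries and lines are means. CD9 and TSPAN14 are the members with a called difference, with brain points at 203 to 225 CPM and 363 to 383 CPM against spleen points at 106 and 125 CPM and 261 and 265 CPM.

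The difference in CD9 was shared by its transcripts. The tables hold 12 annotated CD9 transcripts, of which 5 had a mean of at least 1 TPM, and all 5 were higher in every brain library than in every spleen library. The main coding transcript CD9-201 had 182, 172 and 180 TPM in brain against 85.8 and 115 TPM in spleen. The coding CD9-204 had 64.8, 73.0 and 75.0 TPM in brain and 26.3 and 43.4 TPM in spleen. CD9-201 made up 58.2% to 59.0% of the gene's TPM in brain, and 62.1% and 60.2% in spleen. The make-up of CD9 therefore moved by a few percentage points while its level differed. Transcript levels are model estimates from shared reads and were not tested.

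**Figure D2:**
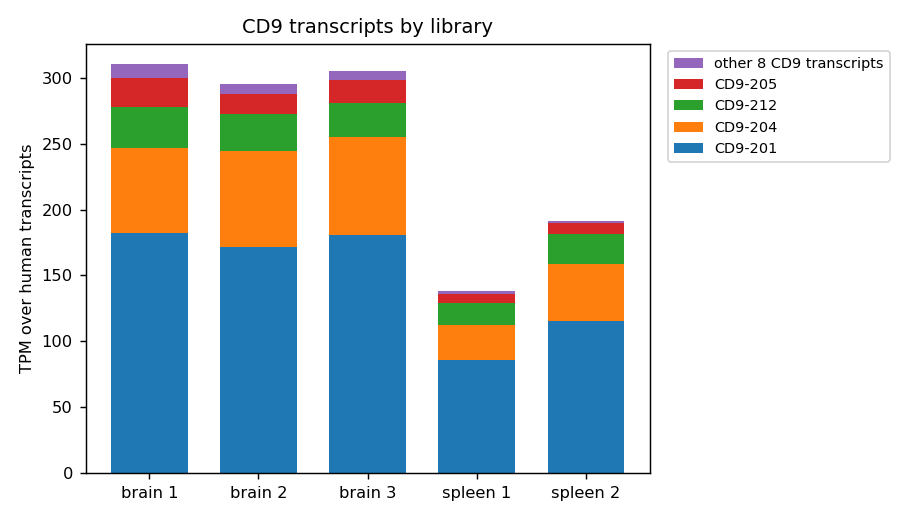
Stacked bars of CD9 transcript levels in TPM over human transcripts, 1 bar per library, with the 4 most abundant transcripts and the sum of the other 8. CD9-201 is the largest block in each bar, at 172 to 182 TPM in brain and 85.8 and 115 TPM in spleen.

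TSPAN14 belongs to the TspanC8 tetraspanins, which escort the membrane protease ADAM10 to the cell surface (ENSG00000108219, chromosome 10, 80454265 to 80533124). It had 363, 382 and 383 CPM in brain and 261 and 265 CPM in spleen. Brain libraries lay above spleen libraries without overlap, and the spread within each site was small, with means of 376 ± 11.2 CPM in brain (SD, n = 3) and 263 ± 3.23 CPM in spleen (SD, n = 2). Its log2 fold change was 0.52 (SE 0.0956, 1.43-fold, edgeR adjusted p = 0.0137). It no longer passed without brain replicate 1 (adjusted p = 0.0535), without brain replicate 2 (0.059) and with the mouse share as a covariate (0.312), at log2 fold changes of 0.54, 0.51 and 0.46. All 10 of its transcripts had a mean of at least 1 TPM, and 5 of them were higher in every brain than in every spleen library. An annotated antisense gene lies across TSPAN14. With the strand setting unknown, reads from exon sequence that the 2 genes share cannot be told apart, and the extent of such sequence was not measured.

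TSPAN33, another TspanC8 protein, did not follow TSPAN14 (ENSG00000158457, chromosome 7, 129144707 to 129169699). It had 19.1, 18.8 and 25.8 CPM in brain and 28.8 and 25.8 CPM in spleen, so brain replicate 3 met spleen replicate 2. Its log2 fold change was -0.36 (SE 0.151, edgeR adjusted p = 0.174). It passed as lower with the replicate number as a block (log2 fold change -0.52, adjusted p = 0.0356) and without brain replicate 3 (-0.53, adjusted p = 0.0466). The fits are not independent, since brain replicate 3 has no spleen partner and the block takes it out of the difference.

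CD81, a tetraspanin of lymphocytes and an entry receptor of hepatitis C virus, was lower in each brain library than in each spleen library but did not pass (ENSG00000110651, chromosome 11, 2376177 to 2397802). It had 244, 239 and 243 CPM in brain and 373 and 258 CPM in spleen. The 3 brain values were close together, and the 2 spleen values were far apart. Its log2 fold change was -0.38 (SE 0.146, edgeR adjusted p = 0.138). Without spleen replicate 2 it was -0.63 and passed (adjusted p = 0.0125), and without spleen replicate 1 it was -0.10 (adjusted p = 0.667), so its size rests on spleen replicate 1. It also passed with no filter on low counts (-0.39, adjusted p = 0.0242).

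CD63, a tetraspanin of late endosomes and secreted vesicles, had 66.2, 70.9 and 92.3 CPM in brain and 107 and 87.7 CPM in spleen (ENSG00000135404, chromosome 12, 55725323 to 55729707). Brain replicate 3 lay above spleen replicate 2, and the groups overlapped. The log2 fold change was -0.35 (SE 0.153, edgeR adjusted p = 0.196). It passed as lower with the replicate number as a block (-0.50, adjusted p = 0.0399; without brain replicate 3 -0.51, adjusted p = 0.0533, not passed) and with no filter on low counts (-0.35, adjusted p = 0.045). An annotated antisense gene lies across CD63, as across CD81, CD82, TSPAN14 and TSPAN3. With the strand setting unknown, reads from exon sequence shared with such a gene cannot be told apart, and its extent was not measured.

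The leukocyte tetraspanins CD53 and CD37 are both found on mature B cells, where CD37 takes part in survival signalling. CD53 had 152, 148 and 153 CPM in brain and 144 and 128 CPM in spleen (ENSG00000143119, chromosome 1, 110871188 to 110899922). Its brain libraries were just above its spleen libraries, at a log2 fold change of 0.15 with a 95% interval of -0.073 to 0.37 (edgeR adjusted p = 0.387). CD37 was scarce, at 5.05, 5.15 and 4.56 CPM in brain and 3.60 and 4.42 CPM in spleen (ENSG00000104894, chromosome 19, 49335171 to 49343335). Brain again lay above spleen, with a log2 fold change of 0.29 and a 95% interval of -0.13 to 0.72 (edgeR adjusted p = 0.375). CD37 overlaps TEAD2 on the other strand, so its counts are uncertain.

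CD82, known as a suppressor of metastasis in carcinoma, had 12.6, 18.8 and 17.5 CPM in brain and 15.2 and 11.7 CPM in spleen (ENSG00000085117, chromosome 11, 44564427 to 44620358). The groups overlapped, and the log2 fold change was 0.28 (95% interval -0.15 to 0.71, edgeR adjusted p = 0.403), which turned to -0.37 with the mouse share as a covariate (adjusted p = 0.533). One of its coding transcripts, CD82-204, was chosen after its values were seen, and had 3.43, 3.34 and 4.34 TPM in brain and 0.959 and 0.739 TPM in spleen. That transcript made up 15.5% to 27.8% of the gene in brain and 8.21% and 5.86% in spleen, from 259 estimated counts over the 5 libraries. The longer coding transcript CD82-201 overlapped between the sites, at 5.56, 7.77 and 7.04 TPM in brain and 7.52 and 5.72 TPM in spleen.

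CD151, the tetraspanin that binds laminin-binding integrins most tightly, was the scarcest member, at 1.87, 1.6 and 1.89 CPM in brain and 2.32 and 2.40 CPM in spleen (ENSG00000177697, chromosome 11, 832887 to 839831). Every brain library was below both spleen libraries, but 73 to 121 counts lay behind each value, and the log2 fold change of -0.41 had a 95% interval of -0.90 to 0.084 (edgeR adjusted p = 0.281). CD151 overlaps POLR2L on the other strand. TSPAN3, which has been tied to self-renewal of myeloid leukaemia, had 136, 129 and 154 CPM in brain and 146 and 125 CPM in spleen (ENSG00000140391, chromosome 15, 77041404 to 77083984). Its groups overlapped, the log2 fold change was 0.045 (95% interval -0.22 to 0.31, edgeR adjusted p = 0.863), and its sign changed in 4 of 14 alternative analyses.

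**Figure D3:**
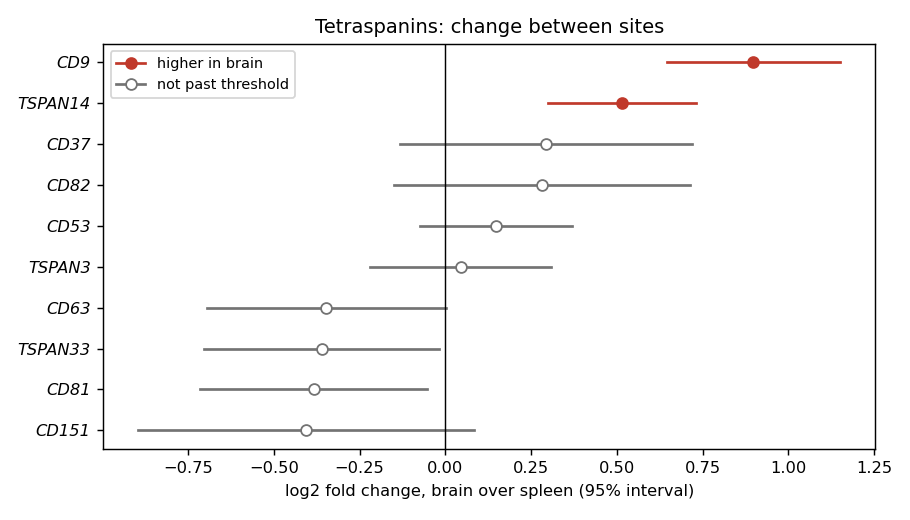
Log2 fold change, brain over spleen, of each tetraspanin with its unadjusted 95% interval; filled points passed an adjusted p of 0.05. CD9 (0.90) and TSPAN14 (0.52) are filled, and the 4 lowest, CD63, TSPAN33, CD81 and CD151, lie between -0.35 and -0.41.

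Levels of different genes can be compared per transcript length, in TPM. In brain CD9 was the most abundant of the 10, at 304 ± 7.59 TPM (SD, n = 3), in front of CD81 at 277 ± 3.55 TPM. In spleen CD81 led at 362 ± 52.1 TPM (SD, n = 2), and CD9 stood at 165 ± 37.9 TPM, which overlapped CD63 at 181 ± 0.353 TPM and CD53 at 160 ± 0.123 TPM. CD9 had rank 1 in each of the 3 brain libraries, and ranks 4 and 2 in spleen replicates 1 and 2. In brain CD53 followed at 177 ± 2.71 TPM, apart from TSPAN14 at 158 ± 6.79 TPM, while the ranges of TSPAN14, CD63 (143 ± 29.1 TPM) and TSPAN3 (131 ± 11.0 TPM) overlapped from each to the next. In spleen TSPAN3 at 125 ± 2.52 TPM and TSPAN14 at 117 ± 18.5 TPM followed CD53 and overlapped each other. TSPAN33, CD82, CD37 and CD151 were the least abundant at both sites, at 18.8, 17.7, 6.50 and 2.01 TPM in brain and 23.9, 12.1, 5.17 and 2.78 TPM in spleen. The ranges of TSPAN33 and CD82 overlapped in brain and were apart in spleen.

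The summed level of the 10 genes was 1204, 1219 and 1281 TPM in brain and 1147 and 1160 TPM in spleen. CD9 held 25.8%, 24.2% and 23.9% of that sum in brain, and 12.0% and 16.5% in spleen. CD81 held 23.3%, 22.7% and 21.3% in brain, and 34.8% and 28.0% in spleen. The ratio of CD9 to CD81 in TPM was therefore 1.11, 1.07 and 1.12 in brain and 0.346 and 0.589 in spleen. CD53, by contrast, held 13.9% to 14.7% in brain and 14.0% and 13.8% in spleen. These shares were not tested, and a rise of 1 member lowers the share of the others.

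**Figure D4:**
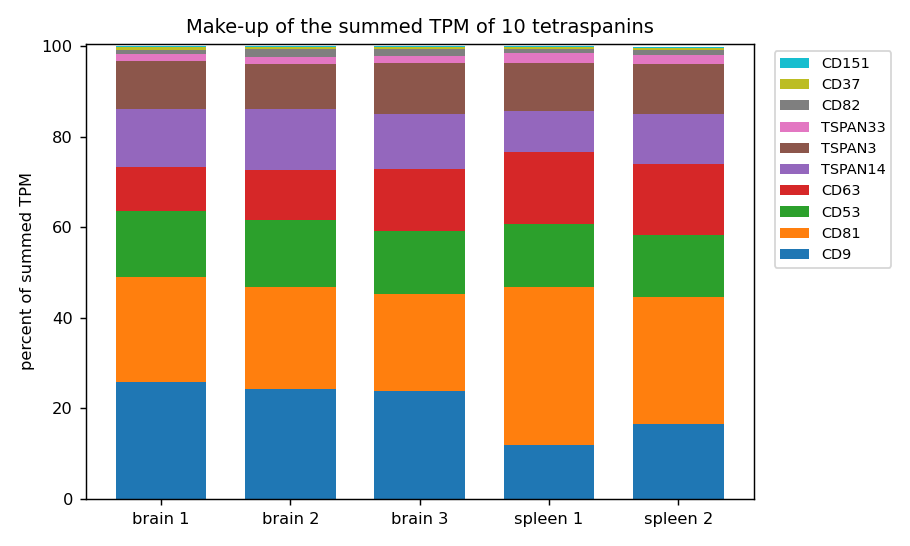
Stacked bars of the percent of the summed TPM of the 10 tetraspanins held by each, 1 bar per library. The CD9 block spans 23.9% to 25.8% in brain and 12.0% and 16.5% in spleen, and the CD81 block 21.3% to 23.3% in brain and 34.8% and 28.0% in spleen.

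The genes whose pattern over the 5 libraries was nearest to that of CD9 were FOSL2, LPAR6, PCMTD1, BVES and TRIM5, with root mean square differences of 0.0647 to 0.0722 in centred log2 CPM among 12889 genes ranked. LPAR6, a receptor for lysophosphatidic acid, had 39.4, 39.7 and 38.4 CPM in brain and 20.4 and 21.7 CPM in spleen. TRIM5, an antiviral restriction factor, had 57.8, 54.6 and 55.9 CPM in brain and 31.0 and 31.9 CPM in spleen. TSPAN14 was the nearest of the other 9 tetraspanins, at 0.211 and rank 424.

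Of the 23 other tetraspanin genes 16 were tested, with a median log2 fold change of 0.13. Among them 4 were higher, 1 was lower and 11 did not pass, against 6.01% of all tested genes higher and 3.50% lower. TSPAN9, a tetraspanin of platelets, stood at 54.6 ± 6.71 CPM in brain (SD, n = 3) and 21.1 ± 0.532 CPM in spleen (SD, n = 2), which is 1.37 as a log2 fold change (edgeR adjusted p = 0.000546). TSPAN7, known from the nervous system and T cell leukaemia, stood at 46.2 ± 5.74 CPM in brain against 28.2 ± 4.40 CPM in spleen (log2 fold change 0.71, edgeR adjusted p = 0.018). TSPAN18 was scarce, with 53, 103 and 96 counts in brain and 14 and 17 counts in spleen, and its log2 fold change was 2.49 (edgeR adjusted p = 0.00321). Of these 3, only TSPAN7 lost its call when 1 library was left out, namely brain replicate 2 (adjusted p = 0.053) or spleen replicate 1 (0.081).

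TSPAN5, a TspanC8 protein, had 17.3, 17.1 and 22.1 CPM in brain and 13.0 and 11.2 CPM in spleen (log2 fold change 0.64, edgeR adjusted p = 0.0347). TSPAN4, which builds the migrasomes of moving cells, was the lower one, with 10.0, 10.1 and 8.67 CPM in brain and 14.6 and 13.1 CPM in spleen (log2 fold change -0.53, edgeR adjusted p = 0.0442). Both calls were lost when any 1 of the 5 libraries was left out (adjusted p up to 0.123 and 0.179), and with the replicate block (0.0514 and 0.0831). All 5 calls among these genes were lost with the mouse share as a covariate, the lowest adjusted p being 0.0557, for TSPAN9. The log2 fold changes in that fit kept their sign, at 1.19 for TSPAN9, 0.67 for TSPAN7, 1.88 for TSPAN18, 0.38 for TSPAN5 and -0.53 for TSPAN4.

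**Figure D5:**
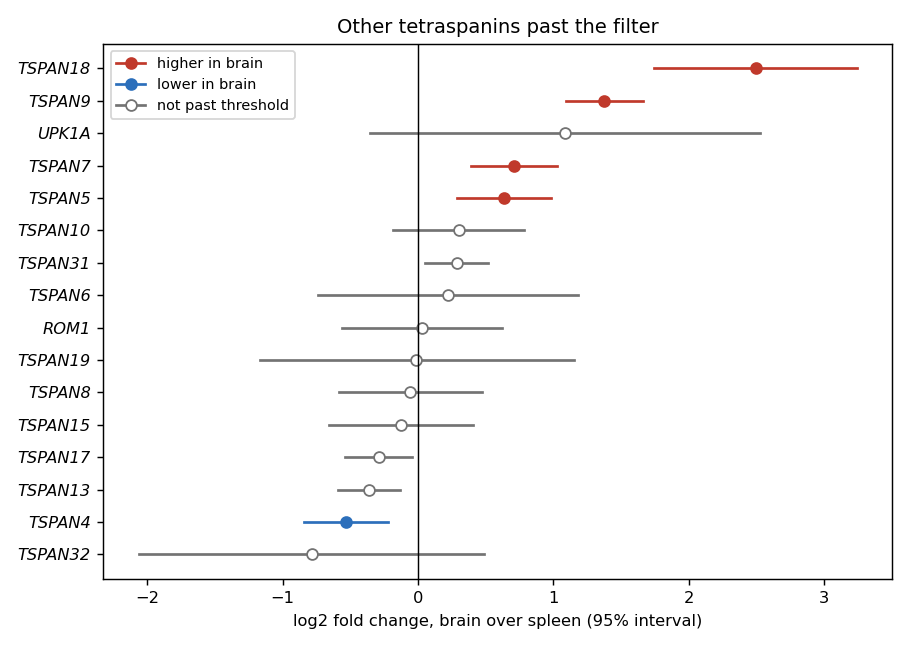
Log2 fold change, brain over spleen, of the 16 other tetraspanin genes past the filter on low counts, with unadjusted 95% intervals; filled points passed an adjusted p of 0.05. TSPAN18 (2.49), TSPAN9 (1.37), TSPAN7 (0.71) and TSPAN5 (0.64) are filled above 0, and TSPAN4 (-0.53) below 0.

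Of the 16 genes that encode known tetraspanin partners 14 were tested, with a median log2 fold change of 0.21. Among them 2 rose, 0 fell and 12 did not pass, against 6.01% of all tested genes higher and 3.50% lower. At an unadjusted p under 0.05, 1 was lower, and 0 were lower by DESeq2 or limma. ITGA6, the alpha chain of a laminin-binding integrin held by CD151 and CD9, had 10.2, 11.8 and 8.71 CPM in brain and 1.5 and 2.12 CPM in spleen. Its brain values were far above those in spleen, and the log2 fold change was 2.49 (SE 0.227, edgeR adjusted p = 0.000546). IFITM1, an interferon-induced membrane protein that binds CD81, had 10.1, 13.2 and 10.7 CPM in brain and 5.40 and 3.81 CPM in spleen (log2 fold change 1.31, SE 0.203, edgeR adjusted p = 0.00674; with the mouse share as a covariate 0.86, adjusted p = 0.257).

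The integrin chain ITGB1 averaged 95.4 CPM in brain and 81.4 CPM in spleen (log2 fold change 0.23) and did not pass. Neither did its partner chain ITGA4, at 121 CPM in brain and 154 CPM in spleen (-0.35), nor the CD9 partner IGSF8, at 22.4 CPM in brain and 25.6 CPM in spleen (-0.19). The CD9 partner PTGFRN had 1, 0 and 1 counts in brain and 0 and 0 counts in spleen, and was not tested.

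Among 15 genes of the ADAM10 and Notch pathway 12 were tested, with a median log2 fold change of 0.13. Of these 3 rose, 0 fell and 9 did not pass, against 6.01% of all tested genes higher and 3.50% lower. At an unadjusted p under 0.05, 2 were lower, and 0 were lower by DESeq2 or limma. NOTCH1, the receptor that ADAM10 cuts after ligand binding, had 158, 208 and 159 CPM in brain and 89.7 and 93.6 CPM in spleen (log2 fold change 0.93, edgeR adjusted p = 0.00517). RBPJ, the DNA-binding partner of cut Notch, was higher by 0.45 on the log2 scale (edgeR adjusted p = 0.0204). The call of RBPJ was lost when any 1 of the 5 libraries was left out (highest adjusted p 0.0809). The calls of NOTCH1 and RBPJ were lost with the mouse share as a covariate, at log2 fold changes of 0.78 and 0.39 (adjusted p = 0.213 and 0.386).

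ADAM10 itself had 136, 133 and 134 CPM in brain and 115 and 111 CPM in spleen. Its brain libraries were all above its spleen libraries, but the log2 fold change of 0.25 did not pass (SE 0.091, edgeR adjusted p = 0.124). The ratio of TSPAN14 to ADAM10 in TPM was 2.55, 2.62 and 3.01 in brain and 2.61 and 2.15 in spleen, which overlapped. Of the TspanC8 genes, TSPAN14 and TSPAN5 were higher, and TSPAN10, TSPAN15, TSPAN17 and TSPAN33 did not pass, with log2 fold changes of 0.30, -0.13, -0.29 and -0.36.

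All 16 genes of the endosome and vesicle list were tested, with a median log2 fold change of 0.059. Of these 1 rose, 0 fell and 15 did not pass, against 6.01% of all tested genes higher and 3.50% lower. None was lower at an unadjusted p under 0.05 (0 genes), and 0 were lower by DESeq2 or limma. The higher gene was SDCBP, which encodes syntenin-1, the adaptor that binds the tail of CD63. It had 79.4, 67.0 and 84.1 CPM in brain and 55.7 and 42.7 CPM in spleen (log2 fold change 0.64, edgeR adjusted p = 0.0275). That call did not hold without brain replicate 1 or 3 or without spleen replicate 2 (highest adjusted p 0.103) and with the mouse share as a covariate (log2 fold change 0.52, adjusted p = 0.407).

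CD9 and several other tetraspanins are also made by platelets, vessels and glia. Marker genes of such cells were read in the same human table. In these hosts such cells are of the mouse, so the human markers do not measure how many were present. Summed levels in TPM were 2.42 to 2.95 in brain and 2.51 and 4.95 in spleen for 5 myeloid markers, and 1.01 to 1.30 in brain and 0.806 and 1.24 in spleen for 5 endothelial markers. They were 3.64 to 10.4 TPM in brain and 3.69 and 6.88 TPM in spleen for 5 megakaryocyte markers, of which PF4 and PPBP had 0 counts in every library. For 5 fibroblast markers the sums were 1.27 to 1.72 TPM in brain and 0.984 and 2.16 TPM in spleen, and for 5 erythroid markers 0.853 to 1.21 TPM in brain and 0.833 and 1.6 TPM in spleen. Neuronal markers summed to 4.28 to 5.97 TPM in brain and 6.48 and 6.15 TPM in spleen, with SNAP25 and NEFL at 0 counts. Glial markers stood apart, at 8.41 to 9.95 TPM in brain and 6.41 and 6.59 TPM in spleen, with MBP the main one at a mean of 6.23 TPM in brain and 4.68 TPM in spleen. Of the 5 glial markers 2 were tested, and neither GFAP nor MBP passed (edgeR adjusted p = 0.0927 and 0.052). All these sums were small beside 304 TPM of CD9 in brain and 165 TPM in spleen, but they give no measure of mouse cells. The part of host cells in the differences was not tested.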

How the data were processed

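RNA was measured by stranded poly(A) sequencing, per the labels' protocols, in 3 brain and 2 spleen libraries. Builds GRCh38 and GRCm38 and the tools kallisto 0.42.4, cutadapt 1.5, bcl2fastq 1.8.4 and DESeq2 are listed in the submitters' processing notes; the strand setting of counting is not given in the sources used here. The authors' transcript tables hold, per the file headers, kallisto estimated counts and TPM for 104229 mouse and 199596 human transcripts. In the deposited gene table, estimated counts are whole numbers, and a second deposited table holds the authors' log2 (rlog) values, used only as an alternative. In both gene tables a further column (1 each) matches none of the 5 samples; it was left out, although the log2 values may have been scaled with it. Pseudoalignment shares reads of similar sequences, human or mouse, by a model.

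Identifiers were matched to GENCODE 44 on GRCh38 (56322 of 65217). After filterByExpr and TMM scaling, site was fitted as the sole term in edgeR 4.0.16 (R 4.3.3) and tested by quasi-likelihood F, with p-values adjusted by Benjamini-Hochberg over 20419 genes. The script was tested on simulated data. The fit had 3 residual degrees of freedom. SE is the log2 fold change over the root of F, and 95% intervals use it without adjustment. CPM uses TMM-scaled totals. TPM was rescaled here to human transcripts, without TMM, and summed per gene. Its NOTCH1 value was not used, because transcripts of that gene did not match. Alternatives also used DESeq2 1.42.0 and limma 3.58.1.

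The members and lists were chosen with earlier results of these data known. All 10 members, up to 6 called genes of each list by smallest p, and the 5 genes nearest to CD9 (mean log2 CPM 1 or more) are named. Other genes are named for their role, and were chosen after their values were seen. Some genes counted in the lists are not reported here by name. A replicate number stands for 1 occasion, per the labels; that brain and spleen replicates 1 and 2 are pairs rests on the titles alone, since the spleen libraries carry other numbers in the deposited tables. Deviations from the group means correlated at -0.0251 over genes for the replicate 1 pair and 0.146 for the replicate 2 pair. These values are not independent, because the deviations of the 2 spleen libraries from their mean are equal and opposite. They do not decide whether the libraries are pairs. Libraries pool different mice on separate occasions, so the spread covers occasions, not single animals.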

Additional observations from a re-analysis of the deposited data

How the results depend on the processing

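The call of CD9 held in all 14 alternative analyses, and no called gene named here changed direction in any. Leaving out 1 library gave 1 to 2 higher and 0 to 1 lower tetraspanins of the 10, 2 to 3 and 0 to 0 of the other tetraspanins, 2 to 2 and 0 to 0 of the partners, 0 to 1 and 0 to 0 of the endosome list, 1 to 2 and 0 to 1 of the Notch list, and 515 to 871 and 146 to 828 of all genes. The replicate block, which leaves 1 residual degree of freedom, gave 2 lower tetraspanins of the 10, CD63 and TSPAN33, and beside the calls given above it ended that of FOSL2. With no filter on low counts 2 of the 10 were lower (CD63 and CD81), as were 2 other tetraspanins, 1 partner, 1 Notch gene and 1337 of all genes. With the DESeq2 Wald test 2 other tetraspanins and 1361 of all genes were lower and 2 endosome genes higher. Upper-quartile scaling and the 1 CPM filter each gave 2 lower other tetraspanins, and summed transcript estimates gave 0, with 1 higher Notch gene of 11 tested, NOTCH1 being absent from that fit because its transcripts did not match. With the mouse share as a covariate, which differs between the sites and leaves 2 residual degrees of freedom, 1 of the 10 (CD9) was higher, 1 partner, 0 other tetraspanins, 0 endosome genes and 0 Notch genes were higher, 0 other tetraspanins were lower, and 114 of all genes were higher and 11 lower. Apart from that absence, the cause of these changes was not tested. Leaving out brain replicate 1 or 2 ended the call of TSPAN14. For TSPAN33 leaving out brain replicate 3 decided the call, and for CD81 leaving out spleen replicate 2 did so. Counting depth was lowest for CD151, with 73 to 121 counts per library.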
